A study of Mus musculus with 12 samples.

Results

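The genes described here are the Slit guidance ligands Slit1, Slit2 and Slit3, their receptors Robo1 and Robo2, and the receptor-binding proteins Srgap1 and Srgap2, 7 of the 43432 genes listed in each table. They were taken by symbol, and all 7 passed the filter on low counts. The set was selected on 1 measured value, the lower total mRNA of Slit3 in high folic acid in these libraries, so that decrease is given below as a description with no test. For all 7 genes, HF total libraries are compared with other doses without p-values. The cells were neural stem cells (NSCs) of male wild-type C57BL/6 mice of 6 to 8 weeks, isolated from the subventricular zone (SVZ) and grown as a monolayer with EGF and bFGF. For 4 days the medium held 1.5 µM folic acid (LF), 10 µM (MF, the level of common culture media) or 80 µM (HF). Poly(A) mRNA was sequenced from the pooled heavy polysome fractions of a sucrose gradient and from the whole cells (total mRNA), with 2 biological replicates per group, which gave 12 libraries in 6 groups. The labels do not say whether the replicates came from separate animals or cultures, so p-values measure only the spread between these libraries.

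Slit proteins are large secreted glycoproteins that bind the immunoglobulin domains of Robo receptors at the cell surface, mostly to repel growing axons and migrating cells. Inside the cell, Srgap proteins bind Robo and take part in rearranging the actin skeleton. In the adult brain, Slit secreted around the ventricles steers the young neurons that leave the SVZ for the olfactory bulb, and those migrating cells themselves make Slit1 and Robo receptors.

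In the mm10 build all 7 are protein-coding genes with long spans. Slit1 (ENSMUSG00000025020) lies on the minus strand at chr19:41600257-41743665, Slit2 (ENSMUSG00000031558) on the plus strand at chr5:47983138-48307733 and Slit3 (ENSMUSG00000056427) on the plus strand at chr11:35121224-35708507. Robo1 (ENSMUSG00000022883, plus strand, chr16:72308306-73046095) and Robo2 (ENSMUSG00000052516, minus strand, chr16:73891839-74411825) are neighbours on chromosome 16. Srgap1 (ENSMUSG00000020121) is on the minus strand at chr10:121780991-122047315 and Srgap2 (ENSMUSG00000026425) on the minus strand at chr1:131285251-131527352. Of these genes only Srgap1 shares exonic bases with another annotated gene, 131 bases with the gene model Gm48804 on the same strand.

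A microRNA links the ligand genes to the receptor genes by sequence, and its letters are shown for that reason. Mir218-1 lies inside Slit2 and Mir218-2 inside Slit3, each on the strand of its host and with no exonic overlap in the annotation. RefSeq gives both loci the same 5p mature sequence (GRCm38.p6, chr5:48223966-48223986 and chr11:35616840-35616860), with the seed, bases 2 to 8, in capitals, while the 3p arms differ.
mmu-miR-218-5p: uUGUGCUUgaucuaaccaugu
mmu-miR-218-1-3p: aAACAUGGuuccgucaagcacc
mmu-miR-218-2-3p: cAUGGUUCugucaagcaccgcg
The tables list both hairpin genes at 0 counts in all 12 libraries. These are libraries of long poly(A) RNA, so mature miR-218 was not measured here.

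The letters AAGCACA, the DNA match of the 5p seed on the transcript strand, stand in the 3′ UTR of 4 of the 7 genes, in the annotated transcript used for each. They occur once in Robo1, at 2 places in Robo2, once in Slit2 and once in Srgap2 (mm10, capitals mark the match).
Robo1 chr16:73045334-73045355, plus strand: ttttttggttttaaAAGCACAa
Robo2 chr16:73895358-73895379, minus strand: ttttatttggtgatAAGCACAa
Robo2 chr16:73893032-73893053, minus strand: gtcacggcagacccAAGCACAg
Slit2 chr5:48304529-48304550, plus strand: gccaatactagcagAAGCACAt
Srgap2 chr1:131286521-131286542, minus strand: ttgggaaaaatccaAAGCACAa
The 3′ UTRs of Slit1 (192 bases), Slit3 (365 bases) and Srgap1 (4407 bases) do not hold these letters. Among 20511 protein-coding genes with a 3′ UTR, 2555 (12.5%) hold them, 17.4% of UTRs of 1000 to 3000 bases (as in Robo1 and Slit2) and 41.4% of those of 3000 bases or more (as in Robo2 and Srgap2). A match is a description of sequence and not a measured site.

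Library totals lay between 24193468 and 28170296 counts for polysome mRNA and between 20506797 and 23593252 for total mRNA. Nes, an intermediate filament gene of neural stem cells, was listed at 57.7 to 156.4 TPM (RSEM's unit, corrected for transcript length) in polysome mRNA and 357.0 to 469.1 TPM in total mRNA. Sox2, a stem cell transcription factor, was at 68.7 to 138.9 TPM in polysome mRNA and 100.4 to 114.6 TPM in total mRNA. The microglial genes Aif1 and Cx3cr1 and the endothelial gene Cldn5 were at 0 counts in every library. Summed over each list, 6 microglial markers held 0.26 to 2.44 TPM, 6 endothelial markers 1.17 to 3.27, 7 ependymal and choroid plexus markers 10.6 to 25.9 and 7 oligodendrocyte lineage markers 36.8 to 77.4. The polysome LF libraries stood apart. Their counts differed from each other with a chi-square of 134.7 per degree of freedom, against 2.70 to 22.4 between the replicates of the other 5 groups. Many of the results that rest on them are given below also without each of these libraries.

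On the per-length TPM scale, Srgap2 was by far the most abundant of the 7 mRNAs and Srgap1 among the scarcest. Across the 6 total libraries Srgap2 held 120.5 to 137.1 TPM, Robo1 19.1 to 22.4, Slit3 9.71 to 15.1, Slit1 7.19 to 9.94, Slit2 4.72 to 6.95, Robo2 1.22 to 3.49 and Srgap1 0.95 to 1.24. In this order Slit3 and Slit1 overlapped, as did Robo2 and Srgap1, and the other neighbours did not. In the 6 polysome libraries Srgap2 held 65.8 to 86.5 TPM, Slit3 2.11 to 10.5, Robo1 5.46 to 8.87, Slit1 1.2 to 4.90, Slit2 1.85 to 2.48, Robo2 0.54 to 3.75 and Srgap1 0.39 to 0.62, and only Srgap2 stood clear of all the rest. TPM of Slit1 and Robo2 also moves with the length RSEM assigned to the gene, which ran from 1590 to 5353 bases for Slit1 and from 1416 to 5438 bases for Robo2 between libraries. Levels of the 7 genes are therefore compared between libraries below as CPM, counts scaled to the library total with TMM factors over the 12 libraries. Levels of marker genes are given in TPM.

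**Figure D1:**
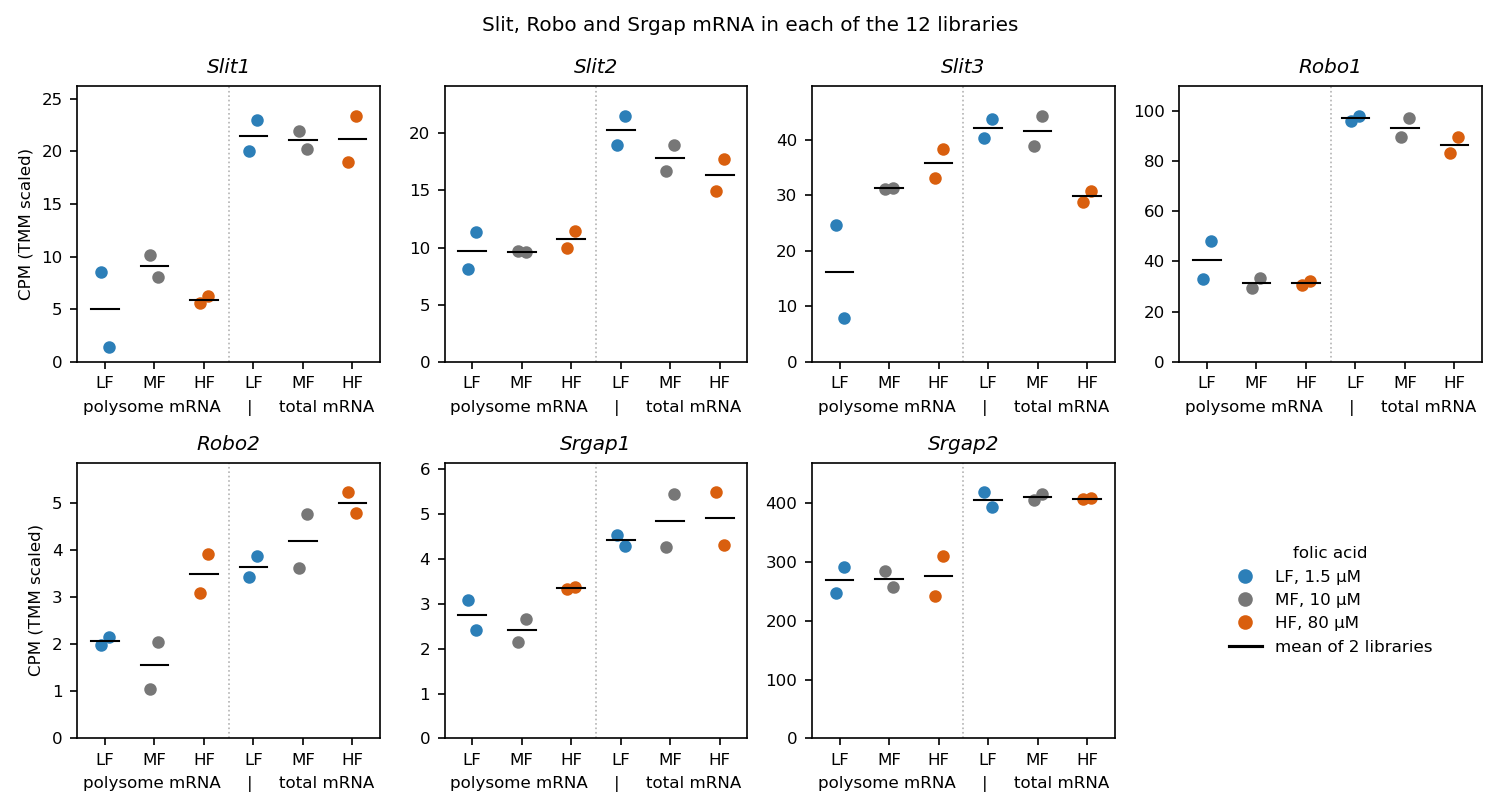
Level of each of the 7 mRNAs (y axis, CPM with TMM factors over the 12 libraries, from 0) in polysome mRNA and total mRNA of LF, MF and HF cells (x axis). Points are libraries and short lines the mean of 2 libraries. Slit3 in total mRNA is lowest in HF (28.8 and 30.8 CPM), and its polysome LF libraries lie far apart (24.6 and 7.82 CPM).

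In total mRNA Slit3, the gene the set was selected on, had 40.4 and 43.8 CPM in LF cells, 38.8 and 44.4 CPM in MF cells and 28.8 and 30.8 CPM in HF cells. Both HF libraries lay below all 4 others, and the LF and MF libraries overlapped. The means were 42.1 ± 2.42 CPM in LF, 41.6 ± 3.92 in MF and 29.8 ± 1.47 in HF (SD, n = 2 each), from 663 to 1072 expected counts a library. On the log2 scale Slit3 was lower in HF than in MF by −0.49 ± 0.08 (SE, 1.40-fold) and lower in HF than in LF by −0.50 ± 0.08. Because this decrease was known when the genes were chosen, the counts of members called, 1 of 7 in HF against MF (background 0.0863% of 13912 genes) and 1 of 7 in HF against LF (background 1.79%), are given only for completeness. The HF against MF value was −0.57 without total MF replicate 1, −0.40 without MF replicate 2 and −0.43 without HF replicate 1, and the count of 1 was then 0.

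In polysome mRNA Slit3 had 24.6 and 7.82 CPM in LF cells, 31.1 and 31.4 CPM in MF cells and 33.1 and 38.4 CPM in HF cells. The HF libraries were the highest and the LF libraries the lowest, with no overlap, but on the log2 scale the LF libraries differed from each other (−1.65) by more than any pair of doses. No polysome change of Slit3 was called, with log2 0.20 ± 0.46 in HF against MF (edgeR adjusted p = 0.958), −0.95 ± 0.47 in LF against MF (adjusted p = 0.329) and 1.15 ± 0.47 in HF against LF (adjusted p = 0.332). Without polysome LF replicate 2, the low library, LF against MF was −0.35 (adjusted p = 0.261) and HF against LF 0.54 (adjusted p = 0.0512). Without polysome LF replicate 1 the same comparisons were −1.99 (adjusted p = 4.58e-06) and 2.19 (adjusted p = 7.98e-06), in fits where the lone LF library is assumed to vary like the other groups. These fits called 50.5% and 39.3% of all genes, so a call of Slit3, or of Slit1 and Robo1 below, in them is a common event.

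The ratio of polysome to total mRNA is called translation efficiency (TE) here. On the log2 scale polysome against total mRNA of Slit3 was −1.38 ± 0.38 at LF, −0.41 ± 0.37 at MF and 0.26 ± 0.37 at HF. The polysome libraries lay below the total libraries at LF and MF and above them at HF, a place none of the other 6 genes took. TE was 0.68 ± 0.53 higher on the log2 scale in HF than in MF and 1.64 ± 0.53 higher in HF than in LF, values that contain the known decrease of total mRNA and are given without a test. TE in LF against MF, which does not contain it, was −0.96 ± 0.53 (adjusted p = 0.397), and it was −0.36 without polysome LF replicate 2 and −2.02 (adjusted p = 1.84e-06, in a fit that called 46.2% of all genes) without replicate 1.

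Markers of mesenchymal and mural cells, the contractile and matrix-making cells of vessel walls and meninges, lay mostly on the same side as Slit3 in HF against MF. In the study's staining all cells were positive for Nestin and Sox2. The study reported Acta2, Fbln5 and Ogn of these markers, like Slit3, as lower in total mRNA of HF than of MF. In that comparison edgeR called none of Acta2, Fbln5 and Ogn here (adjusted p = 0.478, 0.246 and 0.322), though all were lower in HF. The list was chosen with earlier results of these data known, so their decrease is a description and not independent evidence. Of 18 listed markers, 15 passed the filter and none was at 0 in all libraries, but several were near it. Cnn1, Postn and Rgs5 did not pass, at no more than 0.26, 0.10 and 0.11 TPM in any library. Col1a1 and Anpep passed at no more than 0.81 and 0.83 TPM. The summed level given below came mostly from Col1a2, Islr, Acta2, Tagln and Myl9. In total mRNA 14 of the 15 were below 0 in HF against MF, with a median log2 of −0.40 (all genes 0.00). There 1, Islr, fell by edgeR (background 0.0863% of 13912 genes). DESeq2 called 5 (23 over all genes), and 10 had an edgeR unadjusted p under 0.05 (971 over all genes). In HF against LF the median was −0.51 and 7 fell (background 1.79%). On polysomes the median in HF against MF was 0.46, with 11 of 15 above 0 and none called by edgeR. There 6 had an edgeR unadjusted p under 0.05 (453 of all 13433 genes) and DESeq2 called 1 (24 over all genes). TE in HF against LF was above 0 for 15 of 15 (median 0.77), and 2 rose (background 0.0971%). Acta2, the smooth muscle actin, had 28.8 and 38.5 TPM in total mRNA of HF cells, against 47.0 and 51.7 TPM in MF cells, and 344.4 and 413.6 TPM on polysomes of HF cells, against 234.5 and 215.8 TPM in MF cells. The summed level of the 18 markers ran from 718.2 to 1002 TPM in polysome LF, 919.0 to 959.3 in polysome MF and 1170 to 1366 in polysome HF, and from 633.3 to 682.3 TPM in total LF, 600.1 to 630.2 in total MF and 445.2 to 514.4 in total HF. In HF against MF the median log2 of 12 neural stem cell markers was 0.06 in total mRNA and −0.09 on polysomes. Their summed level was higher in HF than in MF, at 3674 to 4116 against 3288 to 3392 TPM in total mRNA. On polysomes it was 3160 to 3215 TPM in HF against 2352 to 2657 TPM in MF. The part of such cells in the Slit3 values was not tested, and in bulk mRNA fewer cells of a type and less mRNA per cell cannot be told apart.

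**Figure D2:**
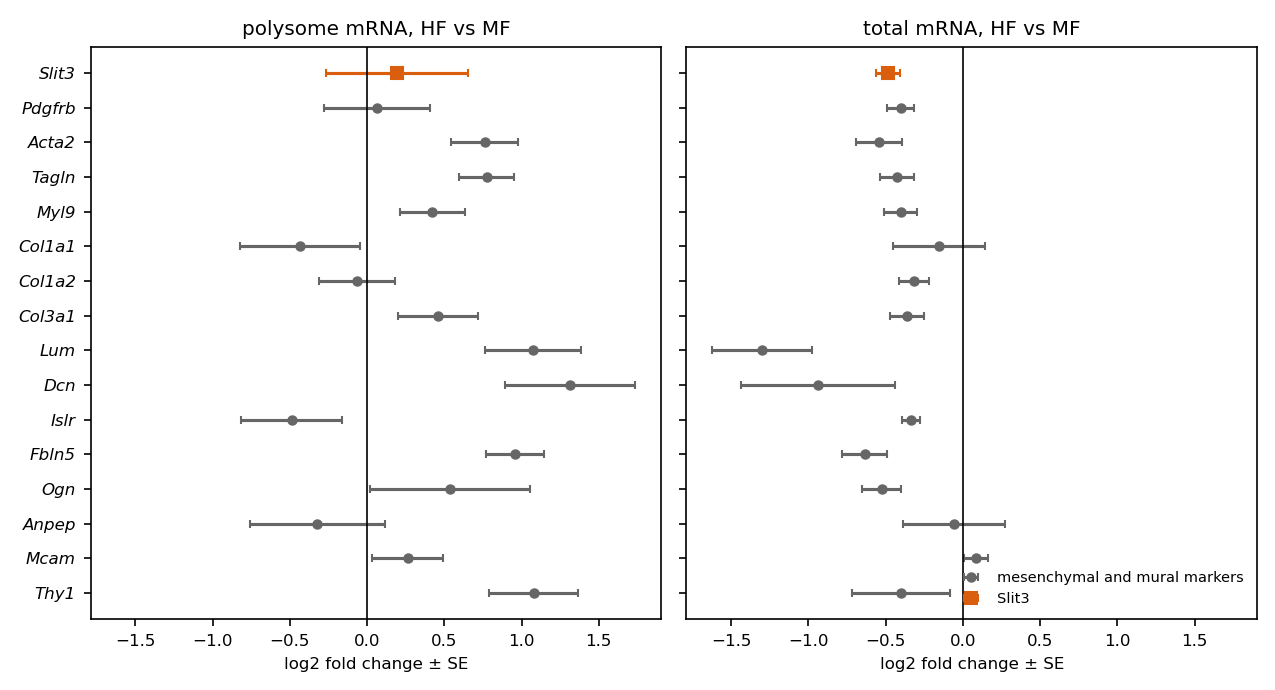
Change of Slit3 (square) and of the 15 mesenchymal and mural markers tested (circles) in HF against MF, on polysomes (left) and in total mRNA (right). The x axis is the log2 fold change with its SE (2 libraries per group), and the line marks 0. In total mRNA Slit3 (−0.49) and 14 markers lie below 0, and on polysomes Slit3 (0.20) and 11 markers lie above it.

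Slit1, the Slit that neuroblasts and neurons make, had steady total mRNA and a low share on polysomes. Its total mRNA was 20.0 and 23.0 CPM in LF, 21.9 and 20.2 CPM in MF and 19.0 and 23.4 CPM in HF, all overlapping, with log2 0.03 ± 0.11 in LF against MF (edgeR adjusted p = 0.981) and 0.00 ± 0.11 in HF against MF. On polysomes it had 8.54 and 1.42 CPM in LF, 10.1 and 8.07 in MF and 5.60 and 6.22 in HF. Both HF libraries lay below both MF libraries, but neither HF against MF (log2 −0.62 ± 0.66, adjusted p = 0.948) nor LF against MF (−0.87 ± 0.66, adjusted p = 0.498) was called. The value in LF rested on replicate 2 (33 counts, against 210 in replicate 1). Without it LF against MF was −0.09 (adjusted p = 0.862), and without replicate 1 it was −2.66 (adjusted p = 1.46e-05). HF against LF (0.25 ± 0.66, adjusted p = 0.907) turned to −0.53 without replicate 2 and was 2.04 without replicate 1. Markers of neuroblasts and young neurons, 10 listed and none at 0, summed to 52.5 to 54.4 TPM on polysomes of LF cells, 86.3 to 102.5 in MF cells and 63.9 to 68.9 in HF cells, and to 159.7 to 175.4 TPM in total mRNA over all doses. Their part in the Slit1 values was not tested.

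Slit2 was the ligand with the least mRNA per length in total mRNA and changed little on polysomes. It had 19.0 and 21.5 CPM in total mRNA of LF cells, 16.7 and 19.0 in MF cells and 14.97 and 17.7 in HF cells. The HF libraries lay below the LF libraries (log2 −0.32 ± 0.11, no test given) and the LF libraries just above the MF libraries (0.18 ± 0.11, edgeR adjusted p = 0.833). On polysomes Slit2 had 8.09 and 11.3 CPM in LF, 9.69 and 9.62 in MF and 9.96 and 11.5 in HF, with log2 0.15 ± 0.28 in HF against MF and −0.01 ± 0.28 in LF against MF (adjusted p = 0.951 and 0.994). The sign of LF against MF turned on the LF library used, at 0.24 without polysome LF replicate 1 and −0.26 without replicate 2.

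Robo1, the more abundant receptor, was close to level across the doses. It had 96.2 and 98.2 CPM in total mRNA of LF cells, 89.4 and 97.1 in MF cells and 83.3 and 89.4 in HF cells, a log2 difference of −0.12 ± 0.06 in HF against MF and −0.17 ± 0.06 in HF against LF. On polysomes it had 33.0 and 48.3 CPM in LF, 29.6 and 33.6 in MF and 30.6 and 32.0 in HF. The highest of these was again polysome LF replicate 2, and LF against MF was 0.35 ± 0.25 (edgeR adjusted p = 0.475). It was called without replicate 1 (0.62, adjusted p = 0.00612) and was 0.06 without replicate 2.

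Robo2 was scarce, with 26 to 95 expected counts in a polysome library and 77 to 124 in a total library. On polysomes it had 1.99 and 2.16 CPM in LF, 1.05 and 2.05 CPM in MF and 3.10 and 3.92 CPM in HF, so that both HF libraries lay above all 4 others. HF against MF was 1.17 ± 0.40 on the log2 scale (2.24-fold), with an unadjusted p of 0.0211 in edgeR's test across all genes and an adjusted p of 0.948. Its total mRNA was 3.43 and 3.88 CPM in LF, 3.62 and 4.77 in MF and 5.24 and 4.79 in HF, and both HF libraries again lay above every other library, the lower of them narrowly, by log2 0.25 ± 0.19 over MF and 0.46 ± 0.19 over LF. TE in HF against MF was 0.90 ± 0.42.

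Neither Srgap mRNA was called in any comparison of doses. Srgap2, which also shapes dendritic spines and neurites, had 419.2 and 393.2 CPM in total mRNA of LF cells, 405.8 and 416.3 in MF cells and 407.0 and 408.9 in HF cells, and 247.3 and 291.0 CPM on polysomes of LF cells, 284.0 and 257.8 in MF cells and 242.5 and 309.8 in HF cells. The doses overlapped within each fraction, and each dose difference was at most 0.05 in size on the log2 scale, in total mRNA (SE 0.05 each) and on polysomes (SE 0.19 each). Srgap1 had 3.09 and 2.42 CPM on polysomes of LF cells, 2.15 and 2.66 in MF cells and 3.33 and 3.38 in HF cells. The HF libraries were the highest, but HF against MF was not called (0.48 ± 0.32, adjusted p = 0.948). In total mRNA Srgap1 had 4.54 and 4.29 CPM in LF, 4.27 and 5.45 in MF and 5.50 and 4.32 in HF, all overlapping.

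None of the 7 genes was called by edgeR in total LF against MF (background 0.00719% of 13912 genes), polysome LF against MF (0.0223% of 13433), polysome HF against MF (0%, with 453 genes at an unadjusted p under 0.05), polysome HF against LF (0.0149%) or TE in LF against MF (0.236% of 14421). At an unadjusted p under 0.05 the members counted 0, 0, 1 (Robo2), 1 (Slit3) and 0 in these comparisons, and DESeq2 called 0 in each. Over all genes tested the unadjusted counts were 872, 2324, 453, 1882 and 2277, so 1 of 7 is not a rare event on polysomes in HF against LF. The median log2 of the 7 in these comparisons was 0.01, −0.01, 0.15, 0.25 and 0.01, and that of all genes lay between 0 and 0.02. TE in HF against MF (background 0%) and in HF against LF (0.0971%), which hold the HF total libraries, also had 0 members called by edgeR. DESeq2 called 0 and 1 members, and 30 and 716 of all 14421 genes. The 1 was Slit3, whose TE contains the known decrease, so it is given only for completeness.

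**Figure D3:**
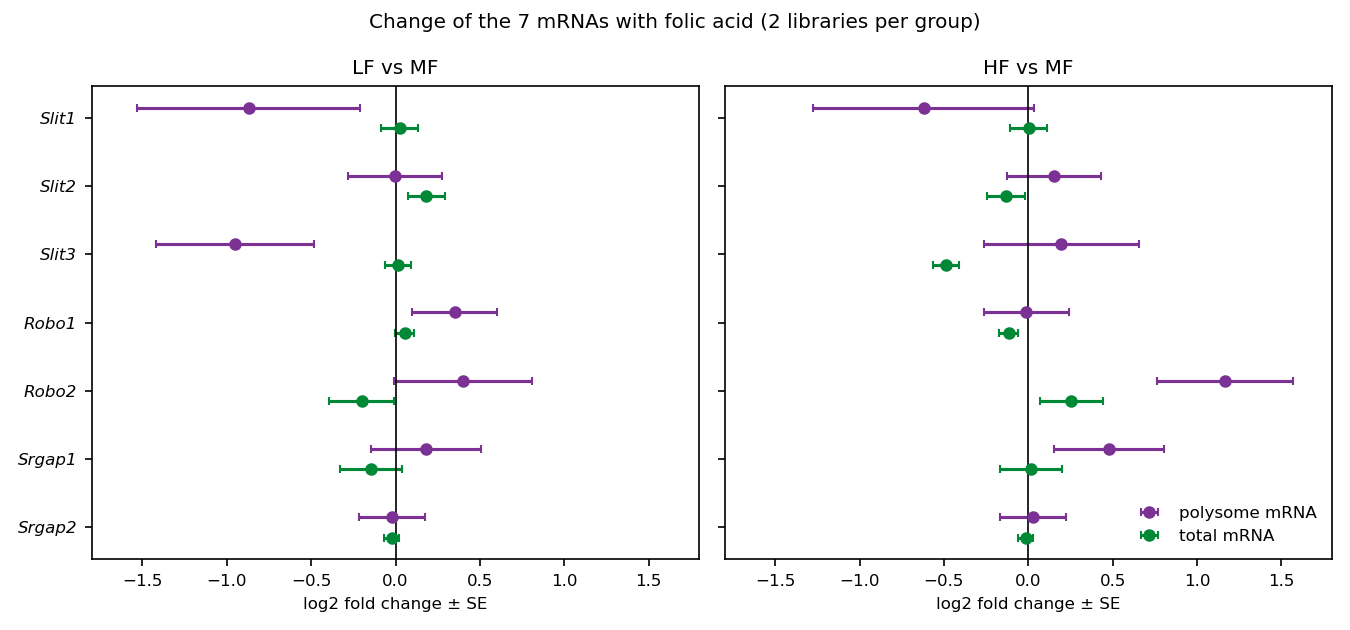
Log2 fold change with SE of the 7 mRNAs in LF against MF (left) and HF against MF (right), on polysomes (purple) and in total mRNA (green), 2 libraries per group. Total mRNA of the other 6 genes lies between −0.20 and 0.25 while Slit3 in HF is at −0.49, and the polysome values have wider errors (SE 0.19 to 0.66).

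Most of the 7 mRNAs were lower on polysomes than in total mRNA. Each fraction was scaled to its own library, so a ratio below 1 means that an mRNA took a smaller share of polysome mRNA than of total mRNA. Over the 3 doses together 6 of the 7 genes were lower on polysomes, against 38.4% of the 14421 genes tested, with a median log2 of −0.85 (all genes −0.09). At LF 7 of 7 were called (background 28.5%, median −1.06 against −0.11 for all genes), but 3 with no filter on low counts and 1 with only the LF libraries, where calls over all genes also fell to 3420, against 7724 with all libraries. The counts were at MF 5 (background 29.3%, median −1.01 against −0.05) and at HF 4 (background 30.7%, median −0.56 against −0.12). None was called higher on polysomes in the full fit.

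The lowest shares on polysomes were those of Slit1 and Robo1. Over the doses Slit1 was lower by −1.72 ± 0.30 on the log2 scale (3.29-fold, edgeR adjusted p = 4.41e-04) and Robo1 by −1.43 ± 0.10 (2.69-fold, adjusted p = 5.35e-07). Robo2 (−0.92 ± 0.17, adjusted p = 6.49e-04), Slit2 (−0.85 ± 0.11, adjusted p = 5.2e-05), Srgap1 (−0.75 ± 0.14, adjusted p = 5.08e-04) and Srgap2 (−0.59 ± 0.08, adjusted p = 6.77e-05) followed. In these 6 genes every polysome library lay below both total libraries of the same dose. The share of all genes that separate this way was not counted, so this is only a description. Without polysome LF replicate 1 Slit1 was at −2.27 and Robo1 at −1.29, and without polysome LF replicate 2 they were at −1.46 and −1.52. Slit3 was at −0.51 ± 0.22 and not called in the full fit. This value contains the HF total libraries that were known to be low, so it is given without a p-value. It was −0.81 without polysome LF replicate 1, −0.30 without replicate 2, −0.48 with DESeq2 and −0.58 with a replicate block. Slit3 passed the threshold in these 4 alternatives and in none of the 12 others.

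Robo1 was called at each dose, at −1.26 ± 0.18 in LF, −1.56 ± 0.18 in MF and −1.46 ± 0.18 in HF. Srgap2 was called at each dose as well, with the smallest spread of the 7 between doses (−0.59, −0.60 and −0.56, SE 0.14 each), and so was Slit2 (−1.06, −0.88 and −0.61, SE 0.20 each). Slit1 was called at LF (−2.10 ± 0.54) and HF (−1.84 ± 0.53) but not at MF (−1.21 ± 0.52, adjusted p = 0.0683), and Robo2 (LF −0.82, MF −1.42) and Srgap1 (LF −0.68, MF −1.01) were called at LF and MF but not at HF (−0.52 and −0.55, adjusted p = 0.147 and 0.0641). The calls at LF of Robo2 (adjusted p = 0.0417) and Srgap1 (adjusted p = 0.0321) were lost in 13 and 6 of 17 alternatives. Slit1 at LF was −3.86 without polysome LF replicate 1 and −1.33 without polysome LF replicate 2. The difference between doses is TE, in which none of the 7 genes was called in the full fit. The count of 7 at LF was 4 without total LF replicate 2, and the count of 4 at HF was 2 without total HF replicate 2 and 1 without polysome HF replicate 1.

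**Figure D4:**
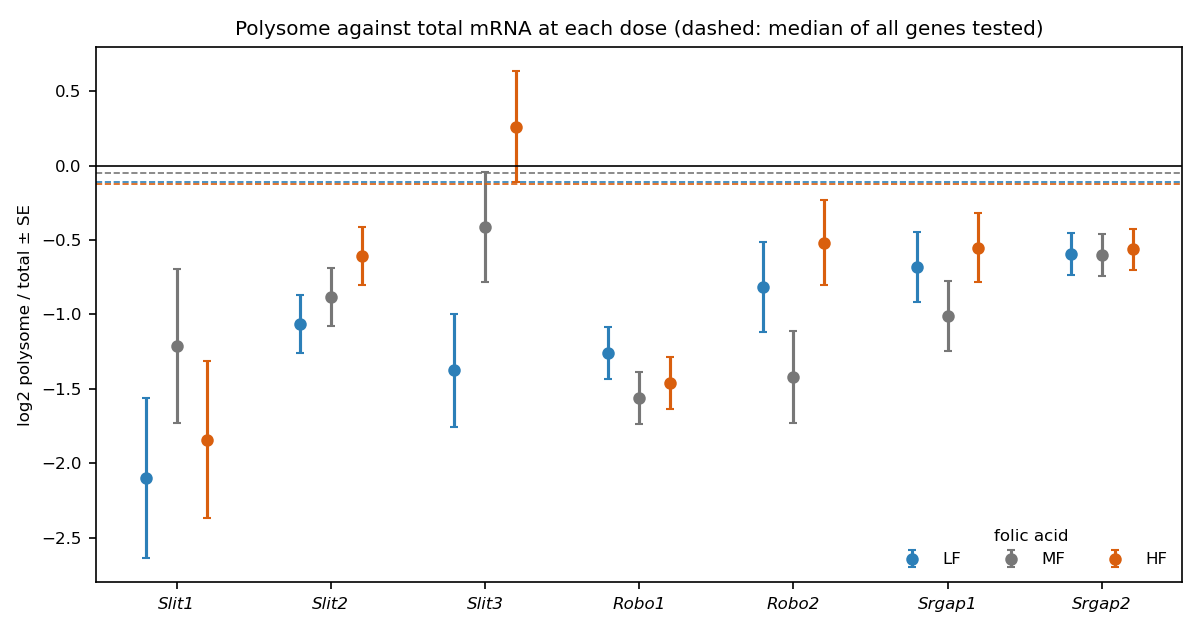
Log2 ratio of polysome to total mRNA with SE (y axis) for the 7 genes (x axis) at LF, MF and HF, from the fit of all 12 libraries. Dashed lines mark the median of all genes tested at each dose (−0.11, −0.05 and −0.12). All values lie below these lines except Slit3 at HF (0.26), and Robo1 stays between −1.26 and −1.56.

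The polysome LF libraries differed by the base composition of the mRNAs, and Slit1 and Slit3 differed by more than most genes of like GC content. Split into 5 classes of equal size by the mean GC content of a gene's transcripts, the 14302 genes with a value had a median log2 difference of replicate 2 minus replicate 1 of 0.69 in the class of lowest GC, then 0.37, 0.00 and −0.45, and −0.99 in the class of highest GC (Pearson r = −0.65, Spearman rho = −0.74, across genes, which are not independent replicates). Slit1, with 58.7% GC, was in the highest class and differed by −2.55. Slit3, with 51.7% GC, was in the middle class, where the middle 50% of genes lay between −0.29 and 0.30, and differed by −1.65. Robo1 (48.2% GC, 0.55), Slit2 (46.4%, 0.48) and Srgap2 (49.2%, 0.23) lay inside the range of the middle 50% of their class, and Robo2 (44.5%, 0.11) and Srgap1 (48.6%, −0.35) below it. Between the replicates of the other 5 groups Slit3 differed by 0.01 to 0.21. The cause of the difference between these libraries was not tested.

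**Figure D5:**
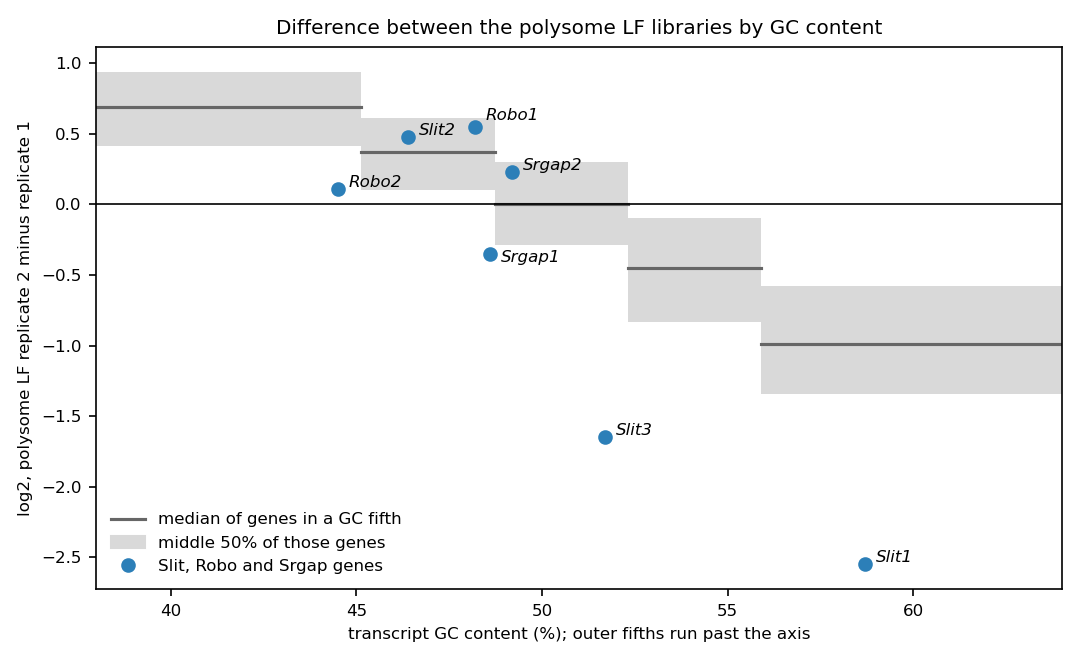
Log2 difference between the polysome LF libraries, replicate 2 minus replicate 1 (y axis), against transcript GC content (x axis, percent). Grey lines are the median and grey bands the middle 50% of all genes in each of the 5 GC classes, and points are the 7 genes. Slit1 (−2.55) and Slit3 (−1.65) lie below the bands of their classes.

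The other genes of Slit-Robo signalling showed both directions between the fractions. Of 28 listed binding partners and effectors 26 were tested, and the remaining receptors Robo3 and Robo4 had at most 3 and 2 counts in any library. Over the doses 9 of the 26 were called higher on polysomes than in total mRNA (background 32.7% of all genes) and 14 lower (background 38.4%), with a median log2 of −0.39. Those that rose were the GTPases Rhoa (1.77-fold), Cdc42 (1.56-fold) and Rac1 (1.34-fold), their effector kinase Pak1 (1.76-fold), the actin-binding Cap1, the heparan sulfate carriers Sdc1 (1.83-fold) and Gpc1, the sulfotransferase Hs6st1 and the chemokine receptor Cxcr4. Rhoa, Cdc42, Rac1 and Cxcr4 were also the most abundant of the list, with mean levels of 468.4, 519.6, 338.3 and 184.4 TPM. Those that fell were Prrg4 (9.77-fold), a proposed counterpart of the fly protein commissureless, which keeps Robo off the cell surface, the Robo1-binding membrane protein Flrt3 (2.74-fold), the third Srgap gene Srgap3 (1.83-fold), and Sos1, Ndst1, Myo9b, Sdc3, Abl1, Usp33, Arhgap39, Dag1, Cxcl12, Ext1 and Nck2 (1.23-fold to 2.15-fold). Rbm4 was called higher only at MF.

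By dose, 1 gene of this list was called by edgeR. Flrt3 fell in total mRNA of HF against LF (1.62-fold, adjusted p = 0.0335). In the 8 other dose comparisons edgeR called none of the 26, between 0 and 4 had an unadjusted p under 0.05, and DESeq2 called at most 1.

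Other guidance families are given against the same background, 38.4% of all genes lower and 32.7% higher over the doses, and the Slit and Robo genes were not compared with them by a test. Over the doses 16 of 28 semaphorin, neuropilin and plexin genes fell and 2 rose (median log2 −0.59). The falls were those of Plxnb3, Plxna2, Sema6d, Sema6c, Plxna1, Nrp1, Sema5a, Plxnc1, Sema4d, Plxnb1, Sema6a, Sema3f, Sema3c, Plxnd1, Sema6b and Plxna3 (1.33-fold to 3.59-fold), while Sema3g (9.25-fold) and Nrp2 (4.02-fold) rose, and Sema3e was called higher only at HF. Of 14 netrin pathway genes Dscam, Unc5a, Unc5d, Unc5c, Rgma and Ntn4 fell (1.40-fold to 5.72-fold) and Ntn5 and Ntng1 rose (3.82-fold and 1.48-fold), Neo1 was called higher only at HF, and the receptor Dcc had 0 counts. Of 18 ephrin and Eph genes Epha3, Epha4, Efna2, Epha7, Efna5, Ephb2 and Efnb2 fell (1.47-fold to 2.80-fold) and Efna1, Epha2, Efna4, Efnb1 and Efna3 rose (1.40-fold to 2.90-fold). The median was −0.30 for the netrin genes and −0.23 for the ephrin genes. The 4 most abundant genes of each family were Plxnb2, Sema5b, Sema5a and Plxna1 (322.8, 102.8, 91.6 and 69.3 TPM), Ntn1, Unc5b, Neo1 and Ntn4 (199.2, 94.95, 39.1 and 16.3 TPM), and Ephb2, Ephb3, Efnb2 and Efnb1 (118.3, 61.9, 48.8 and 38.8 TPM). Of these 12, Sema5a, Plxna1, Ntn4, Ephb2 and Efnb2 fell over the doses, Efnb1 rose and the other 6 were not called.

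With dose, 3 genes of the other families were called, all in total mRNA of HF against LF (background 1.79%). Sema3a rose (1.63-fold, edgeR adjusted p = 0.00297), and the receptors Epha2 (1.25-fold, adjusted p = 0.0195) and Epha3 (1.49-fold, adjusted p = 0.0205) fell. DESeq2 called none of the ephrin genes in that comparison. Where edgeR called no gene of a family in a dose comparison, between 0 and 6 of its genes had an unadjusted p under 0.05 and DESeq2 called at most 3.

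The genes with the profile most like a member over the 12 libraries were named by Pearson r of log2 CPM among 10663 genes with a mean of at least 5 CPM, as a description with no p, since the 12 points share the gap between the fractions and the polysome LF libraries. They were Usp19, Rpap1 and Arhgef17 for Slit1 (r = 0.995, 0.995 and 0.994), Peg3, Tanc2 and Zfp607b for Slit2 (0.982, 0.980 and 0.976), and Col5a3, Adgrb1 and Rps12 for Slit3 (0.951 each). For Robo1 they were Prox1, Pde7b and Samd9l (0.996 each), for Robo2 Rbm12b1, Prickle2 and Cnr1 (0.949, 0.942 and 0.937), for Srgap1 Il6ra, Mfsd4a and Dnhd1 (0.956, 0.952 and 0.952), and for Srgap2 Cyfip1, Ncapd3 and Nedd4 (0.994, 0.993 and 0.992). Within the set Robo1 was closest to Slit2 (r = 0.95) and Srgap2 (0.94), and Slit3 had its lowest r with Robo1 (0.28) and its highest with Slit1 (0.80).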

How the data were processed

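The submitters' processing notes name RSEM 1.3.0, run with Bowtie2 2.2.9, and the mm10 build. The deposited tables give expected counts, estimates that need not be whole, and TPM, which the authors' RSEM run computed from those counts and an effective length. The strand setting and the annotation release were not given in the sources used here. A pair that fits several genes is divided between them.

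Expected counts were rounded. Of 43432 identifiers 42462 matched GENCODE M21, which gave symbols, positions and UTRs. The test was that of edgeR 4.0.16 under R 4.3.3 (TMM, filterByExpr, robust quasi-likelihood F test, Benjamini-Hochberg over all genes). A call needs an adjusted p below 0.05 together with a fold of more than 1.2. Separate models took the total libraries (13912 genes), the polysome libraries (13433) and all 12 (14421), with 3, 3 and 6 residual degrees of freedom. TE is an interaction in the last fit. Tested on simulated data, 100% of 200 genes changed by 2 on the log2 scale were recovered for total HF against MF, 97% for polysome HF against MF and 97.5% for TE. The simulation drew the changed genes above a set mean count and gave all genes the same spread. It therefore does not cover smaller changes or the unlike polysome LF libraries. Each SE is the log2 change divided by the root of its F value.

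Replicates were checked for duplicate deposits and differed by more than sampling noise. Deviations of same-numbered libraries from their group means correlated between −0.27 and 0.25, so no clear pairing by number was seen. Weak correlations cannot show that same-numbered libraries have separate origins. No molecular identifiers mark PCR copies, and true error exceeds that of counting alone.

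Members and gene lists were chosen with earlier results of these data known. Named genes are all members, list genes called in any comparison and the 4 most abundant of each list, and the 3 genes most like each member. Alternatives were RLE scaling, no filter, DESeq2 1.42.0, a replicate block, only the compared libraries, and each library left out.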

Additional observations from a re-analysis of the deposited data

Results flagged for a closer look

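Slit3 values lay on opposite sides of MF and LF in the fractions. Both HF libraries were lower than both MF libraries in total mRNA and higher on polysomes, and the polysome change less the total change was 0.68 on the log2 scale. Against LF the same held, with a difference of 1.64. The lower total mRNA is the value the gene was selected on, and the polysome change in HF against MF was 0.20 ± 0.46 (SE) and not called, so opposite movement is not shown. The difference was not tested.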

How the results depend on the processing

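The count of members lower on polysomes at LF was 7, and it was 3 with no filter on low counts, 1 with only the LF libraries and 4 to 7 with a library left out. At HF 4 members were called, all lower. With calls in either direction counted, the number was 2 with no filter and 1 to 6 with a library left out. Slit3 was called higher at HF with only the compared libraries (log2 0.34), in a fit that called 9843 of 13785 genes in either direction. It was also called without polysome LF replicate 1 (0.32) and without polysome LF replicate 2 (0.27). These values contain the HF total libraries that were known to be low in Slit3, so the calls are a description and no support. For TE in HF against MF the count of 0 was 1 with only the compared libraries and 0 to 1 with a library left out, and in HF against LF it was 1 with DESeq2 and 0 to 3 with a library left out. With a library left out the count was 0 to 1 for total HF against MF (1 in the full fit) and 0 to 3 for polysome LF against MF, polysome HF against LF and TE in LF against MF (0 in the full fits). The 3 were Slit1, Slit3 and Robo1 without polysome LF replicate 1, in fits that called 50.5%, 39.3% and 46.2% of all genes in these comparisons. The causes were not tested, beyond the fewer libraries in these fits. Counts of TE in HF against MF or LF that include Slit3 contain its known lower total mRNA and are a description. Of 1288 values of single members under an alternative, 1169 kept direction and side of the threshold, 39 lost and 34 gained a call, 46 uncalled values changed sign and 0 called values reversed. With a replicate block the counts were 6 at LF, 5 at MF, 4 at HF and 7 over the doses, and no dose count changed. No clear pairing of libraries by replicate number was seen. Counts over all genes moved more: polysome LF against MF had 3 calls with edgeR and 668 with DESeq2, polysome HF against LF 2 and 387, TE in LF against MF 34 and 647, TE in HF against LF 14 and 716, and TE in HF against MF 0 and 30. With 2 libraries per group, the polysome differences detectable were limited by the spread (biological coefficient of variation 0.231, against 0.0433 in total mRNA), and Robo2, Srgap1 and polysome Slit1 also by low counts (26 at the lowest).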
